A study of Mus musculus with 2 samples.

Results

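The cells described here come from the embryonic mouse forebrain and passed limits meant for excitatory neurons. In each, at least 3 unique transcript counts (UMIs, each standing for 1 captured RNA molecule) of Nxph4 and Cplx3 together were found. Such cells were proposed as subplate neurons. A member also had to carry at least 2 UMIs of Neurod2 and Neurod6 together, which mark excitatory neurons, at most 1 UMI of Dlx1, Dlx2 and Dlx6os1 together, which mark inhibitory neurons, and at most 10 UMIs of Reln, which is abundant in Cajal-Retzius cells. These 8 genes chose the cells, so their values are given as a description only. The rule found 121 members among 21941 called cells, 70 of them in the wild-type library and 51 in the library labelled Cyfip2 knockout.

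The study compared forebrains at embryonic day 18.5 of wild-type mice and of mice labelled Cyfip2 knockout, with 1 droplet library for each genotype, made from the pooled, papain-dissociated cells of 2 forebrains. The labels give no strain, sex or form of the targeted allele, and no treatment was named for either group. CYFIP2 is a subunit of the WAVE complex, which switches on branched actin assembly in growing neurites. With 1 library a group, no difference between the genotypes has a replicate check, and every interval below is an exact 95% interval that covers counting error only.

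The subplate is a transient layer of early-born neurons below the cortical plate, which receives the first thalamic axons while they wait to enter the cortex. Nxph4 encodes a neurexophilin, a secreted ligand of neurexins, and Cplx3 a complexin, which controls the fusion of synaptic vesicles. Both are used as subplate markers in late embryonic and postnatal cortex, along with genes such as Ccn2, Nr4a2, Lpar1, Moxd1 and Tmem163. Neurons born later pass through a migrating stage below and within the cortical plate, in which Eomes, Neurod1, Rnd2 and Unc5d are transcribed.

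The called cells had medians of 9998 UMIs in the wild-type and 8273 UMIs in the knockout-labelled library. Both libraries shared 32 called barcodes, against 17.2 expected if barcodes were drawn independently. Cyfip2 itself, on chromosome 11 at 46193850 to 46312859 (GRCm38, minus strand), gave 9246 UMIs (83.9 CPM, UMIs of the gene scaled to a common library total) in wild-type and 11049 UMIs (84.0 CPM) in knockout-labelled cells. Within the members it gave 61 UMIs in 38 cells (52.9 CPM) and 59 UMIs in 35 cells (76.0 CPM). Its transcripts were therefore counted at a like level in both libraries, and whether the counted 3′ tags lie in the targeted part is not given in the sources used here, so that this level checks neither label.

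Almost all members were chosen by Nxph4 alone. Nxph4 lies on chromosome 10 at 127525473 to 127534559 (minus strand), and Cplx3 on chromosome 9 at 57599992 to 57606281 (minus strand). In the wild-type library 66 members carried Nxph4 without Cplx3, 1 carried Cplx3 without Nxph4 and 3 carried both, whereas all 51 knockout-labelled members carried Nxph4 without Cplx3. Summed over members, Nxph4 stood at 221 CPM (255 UMIs) in the wild-type and 272 CPM (211 UMIs) in the knockout-labelled library. Cplx3 gave 31 UMIs (26.9 CPM) in 4 wild-type members and none in the knockout-labelled ones. Of these 31 Cplx3 UMIs, 19 sat in 2 members of a cluster led by vascular and fibroblast genes (cluster 26 below).

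The UMI minimum on Nxph4 and Cplx3 alone was met by 105 wild-type and 81 knockout-labelled cells, of which the other limits left out 35 and 30. Members held between 2886 and 56329 UMIs in the wild-type and between 3340 and 40990 UMIs in the knockout-labelled library. Of the members, 5 (7.14%) and 6 (11.8%) were marked as possible doublets, close to the 7.26% and 10.3% of all called cells. Mitochondrial UMIs had medians of 1.88% and 1.87% in members against 2.62% and 2.85% in other excitatory cells.

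The other subplate markers gave a mixed picture, and several of the defining ones were at or near 0. Of 14 such markers that the rule had not used, Pamr1 and Trh gave no UMI in any member, and Ccn2, a defining gene of the deep subplate, gave 1 UMI in wild-type and 2 UMIs in knockout-labelled members. Nr4a2, a nuclear receptor of subplate and claustrum neurons, stood at 5.21 and 2.58 CPM in members, below its 12.9 and 12.2 CPM in the other excitatory cells, by which are meant those without any Nxph4 or Cplx3 UMI (4916 wild-type and 6294 knockout-labelled cells). Lpar1, a lysophosphatidic acid receptor, was at 0 in wild-type members and gave 8 UMIs in 3 knockout-labelled members. Moxd1 was at 0 and at 1 UMI.

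A few markers were higher in members, at low levels. Tmem163, a zinc transporter, stood at 13.02 and 12.89 CPM in members against 3.70 and 3.94 CPM in other excitatory cells, and the transcription factor St18 at 10.4 and 9.02 CPM against 2.11 and 1.99 CPM. Serpini1, a neuronal serine protease inhibitor, stood at 82.4 and 79.9 CPM against 60.5 and 60.8 CPM. Those of the other excitatory cells with at least 3 UMIs of Tle4 and Foxp2 are termed layer 6-type here. They also carried markers of other cells. A list of 15 non-neural markers summed to 4905 and 2515 CPM in them, against 1040 and 1020 CPM in other excitatory cells. GABAergic neuron markers summed to 658 and 792 CPM against 369 and 418 CPM. Summed over the 14 subplate markers, members reached 161 and 164 CPM, other excitatory cells 112 and 110 CPM, and layer 6-type cells 226 and 221 CPM. That order of members and layer 6-type cells rested on Serpini1 and Hs3st4: without these 2 genes the sums were 42.5 and 69.6 CPM in members, 38.2 and 33.2 CPM in layer 6-type cells and 29.9 and 28.2 CPM in other excitatory cells. Svil gave 27.1 CPM in knockout-labelled members, of which 1 cell held 95.2%.

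A wider list of 25 subplate markers, which holds these 14, gave a like picture. Of its 7 measured genes 1 was at least 2-fold higher in members of both libraries and none lower, at median log2 ratios over other excitatory cells of 0.45 and 0.39, beside 0.01 and 0.02 for all genes and 2.46% of all measured genes called higher by the same condition. The gene was Hpcal1, which encodes a neuronal calcium sensor, at 30.4 and 23.2 CPM in members against 7.20 and 7.62 CPM. Of the 25 genes, 7 had no UMI in wild-type and 5 none in knockout-labelled members. Summed over the list, members reached 820.1 and 795 CPM, other excitatory cells 710.02 and 679 CPM and layer 6-type cells 1247 and 1136 CPM.

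Counted per cell at an equal depth, the share of members with several subplate markers lay below that of layer 6-type cells in both libraries, with intervals that overlapped. After each cell had been thinned to 4000 UMIs, at least 2 of the 14 markers were found in 5 of 69 wild-type members (7.25%, 2.39 to 16.1%) and 1 of 49 knockout-labelled members (2.04%, 0.0517 to 10.9%). The shares were 4.63% and 3.77% of other excitatory cells and 14.6% and 12.4% of layer 6-type cells. They were 42.8% and 38.9% in a cluster led by the corticothalamic gene Hs3st4 (cluster 19 below). The 14 markers include Serpini1 and Hs3st4, and the order of these shares is not shown without these 2 genes. Without thinning the shares of members were 35.7% and 29.4%, at member medians of 14332 and 13581 UMIs. With Ccn2, Nr4a2 and Moxd1 at these low levels, the members are best described by the rule, as Nxph4-rich cells that passed limits meant for excitatory neurons. Some of them lay in clusters led by genes of other cell types, as described below.

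**Figure D1:**
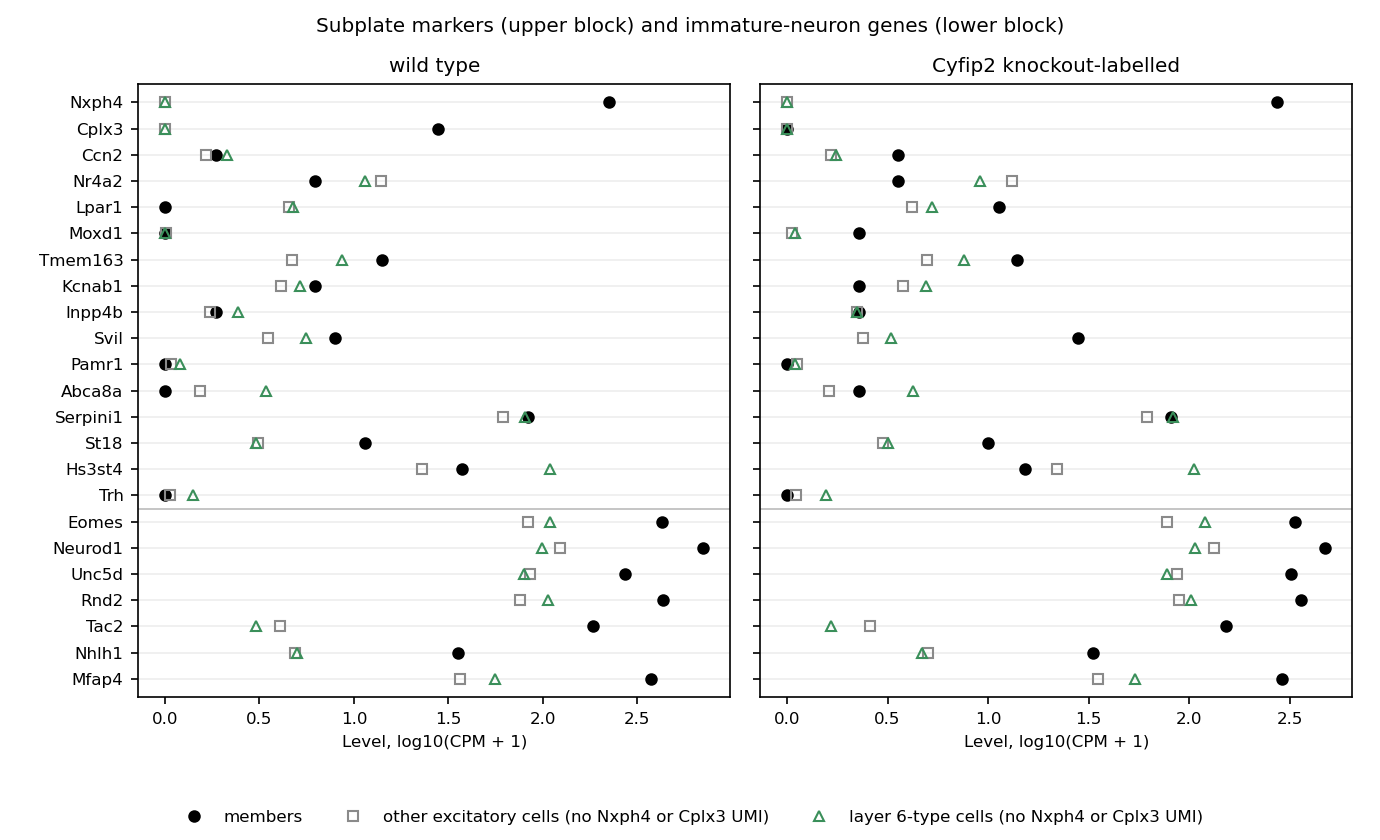
Level of each gene as log10(CPM + 1), horizontally, in members (filled circles), other excitatory cells (squares) and layer 6-type cells (triangles), for the wild-type library on the left and the knockout-labelled library on the right. Nxph4 and Cplx3 chose the members; of the other subplate markers in the upper block most lie near 0 or beside the comparison cells, whereas the immature-neuron genes in the lower block lie to the right in members of both libraries.

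Genes of migrating and immature neurons stood high in members of both libraries. Eomes, a transcription factor of intermediate progenitors and newborn neurons, stood at 428 CPM in wild-type and 333 CPM in knockout-labelled members against 82.7 and 76.8 CPM in other excitatory cells. Neurod1, which drives neuronal differentiation, stood at 706 and 474 CPM against 123 and 132 CPM. Rnd2, a GTPase of the multipolar-to-bipolar transition, stood at 429 and 358 CPM against 74.6 and 88.2 CPM. The netrin receptor gene Unc5d stood at 269 and 321 CPM against 84.0 and 85.6 CPM. In single members the summed level of the 14 genes of this list ran from 3852 to 26584 CPM in the wild-type library, with a median of 17696 CPM, and from 2413 to 25398 CPM in the knockout-labelled library, with a median of 17704 CPM. The 2 libraries overlapped over nearly this whole range.

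When all called cells were clustered without the 8 rule genes, the members fell into 17 of 30 clusters. Cluster 5, led by Tac2, Sstr2, Rnd2 and Eomes, held 68 members, 40 wild-type and 28 knockout-labelled. Together with clusters 4, 7, 20 and 21, which are led by genes of migrating neurons, dividing cells or intermediate progenitors, it held 92 of the 121. Members were nowhere the main content of a cluster: the highest share was 5.82% of cells, in cluster 5. Clusters are kept by number here, with their leading genes.

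The members outside cluster 5 differed among themselves by cluster. The 9 members of cluster 4 carried 29 Nxph4 UMIs and no Cplx3 UMI, and had Unc5d at 938 CPM, against 352 CPM in the 68 members of cluster 5. Cells of cluster 4 were shallow, with a median of 3300 UMIs. The 8 members of cluster 21 carried the intermediate-progenitor genes Eomes and Neurog2 at 1506 and 1418 CPM. The 8 members of cluster 16 had Zic1, a transcription factor of medial and septal lineages, at 977 CPM, the calcium-binding protein gene Calb2 at 332 CPM and the cell-death gene Hrk at 322 CPM. The 3 members of cluster 20, all wild type, carried the proliferation genes Mki67 and Top2a at 1127 and 1538 CPM.

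Deep-layer genes were found in the members of cluster 19. These 5 members, 3 wild-type and 2 knockout-labelled, had the corticothalamic genes Tle4 at 1034 CPM and Hs3st4 at 534 CPM, with Crym at 295 CPM and the dopamine receptor gene Drd1 at 148 CPM. They held 47 Hs3st4 UMIs, of 42 and 11 in all wild-type and knockout-labelled members, and no UMI of Ccn2 or Nr4a2. Cluster 17, led by Sst, Snhg11 and Lhx8, gave 4 members with Chgb at 2053 CPM, Gng8 at 915 CPM, the secretory granule gene Scg2 at 623 CPM and Lhx1 at 321 CPM. Neurod2 and Neurod6 reached only 29.2 and 87.6 CPM in these 4 cells, against 540 and 1010.2 CPM over all wild-type members. Clusters 7 and 26 held 4 and 3 members, and the remaining 9 were spread over 8 clusters with at most 2 in each.

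The 3 members of cluster 26 were unlike each other, and 2 of them carried most of the Cplx3 on which the name of these cells partly rests. Cluster 26 is led by Vtn, Col3a1 and Col1a1, genes of blood vessel walls and fibroblasts. Its 2 Cplx3-bearing members, both wild type, held 19 Cplx3 UMIs and 94 UMIs of Tph1, which encodes tryptophan hydroxylase, together with Otx2 and Crx, homeobox genes of photoreceptors and pinealocytes. In the cluster as a whole, 12 wild-type cells with 3 or more Cplx3 UMIs, these 2 among them, held 178 Cplx3, 840 Tph1 and 172 Crx UMIs, 1 Tbr1 UMI, and none of Col1a1, Nr4a2 or Ccn2. The knockout-labelled library had no such cell and held 10 Cplx3 UMIs in all called cells, against 220 in the wild-type library.

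**Figure D2:**
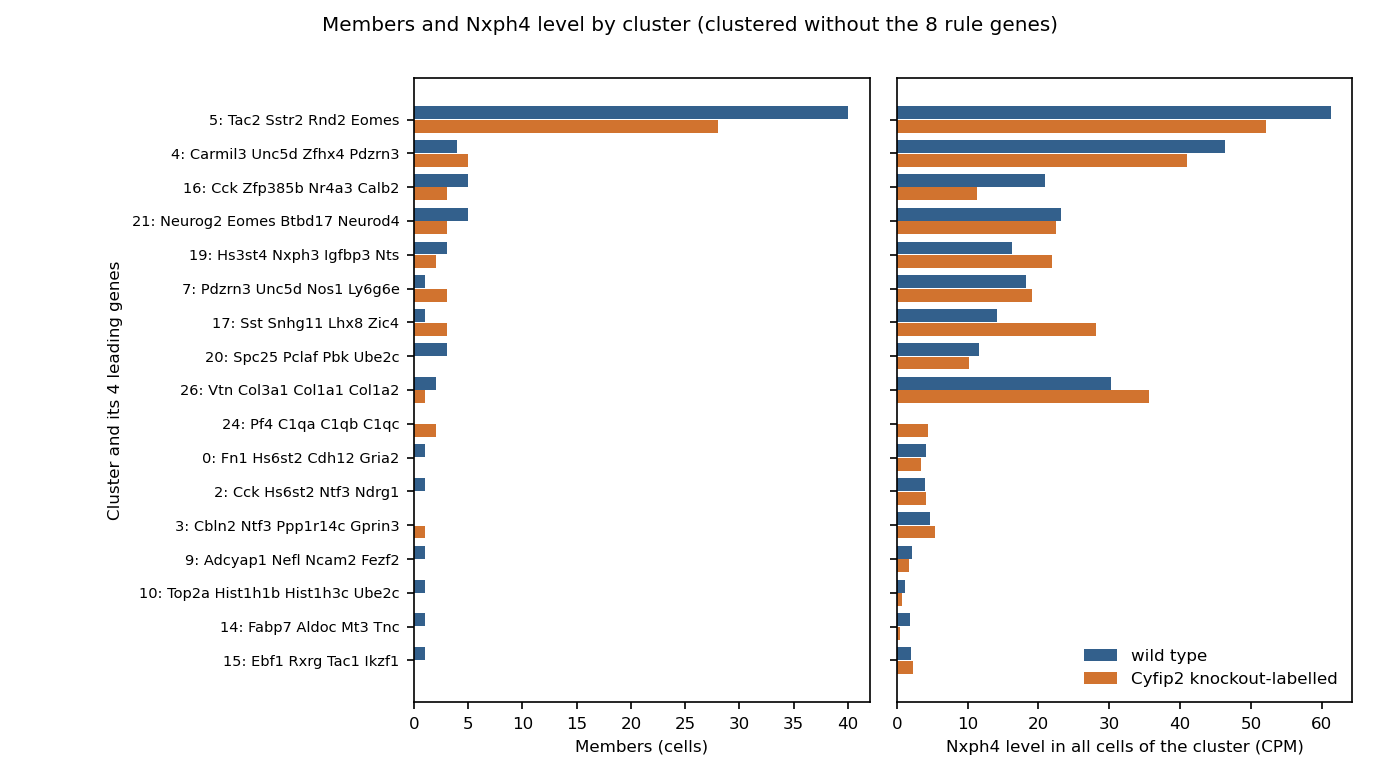
Number of members per cluster (left, cells) and Nxph4 level summed over all cells of the cluster (right, CPM), for the wild-type (blue) and knockout-labelled (orange) libraries, in the 17 clusters that hold a member; rows carry the 4 leading genes of each cluster. Cluster 5 stands apart with 40 and 28 members, and also has the highest Nxph4 level of these clusters in both libraries.

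Nxph4 was not limited to the members, which held 21.6% of its UMIs in called wild-type cells and 16.5% in knockout-labelled cells. Over both libraries its level was highest in cluster 27, led by Ndnf, Nhlh2 and Trp73, at 78.4 CPM, followed by cluster 5 at 56.6 CPM, cluster 4 at 43.5 CPM and cluster 26 at 32.5 CPM. Cluster 19 reached 19.1 CPM. By library, cluster 27 stood at 83.0 and 75.4 CPM, cluster 5 at 61.3 and 52.2 CPM and cluster 4 at 46.3 and 41.0 CPM, so that this order of the 3 clusters was the same in both. Clusters 7 and 19 lay between 16.2 and 21.9 CPM in either library, and their order differed between the libraries.

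Cells on both sides of the threshold of 3 UMIs are given here as a description. Just outside it, with 2 UMIs, lay 129 wild-type and 122 knockout-labelled excitatory cells, and just inside it, with 3 UMIs, 42 and 33 members. Eomes stood at 290 and 239 CPM just outside and at 453 and 368 CPM just inside. Cluster 5 held 44.2% and 41.8% of the cells just outside and 57.1% and 45.5% of those just inside. The 14 subplate markers summed to 148 and 201 CPM outside and to 205 and 218 CPM inside. Members with 5 or more UMIs, 17 and 9 cells, had 128 and 119.6 CPM of the 14 markers, lower than just inside.

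Members made up 0.770% of wild-type called cells (70 of 9086, 0.601 to 0.972%) and 0.397% of knockout-labelled called cells (51 of 12855, 0.296 to 0.521%), a ratio of 0.515 (0.352 to 0.749). Among excitatory cells the shares were 1.25% and 0.732%, with a ratio of 0.584 (0.399 to 0.851). Excitatory cells made up 61.5% and 54.2% of called cells, and the knockout-labelled library was the shallower one, with medians of 8980 UMIs in other excitatory cells against 10914.5 UMIs. Because the rule counts raw UMIs, it was also applied at an equal depth. After thinning to 4000 UMIs it kept 8 of 7572 and 6 of 10029 cells, and the ratio was 0.566 (0.162 to 1.86). This ratio lay near the first, but its wide interval holds both 0.515 and 1. Neither a difference in the share nor its absence was therefore detectable at that depth. The part of depth in the first ratio was not tested.

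The Nxph4-bearing share itself was closer between the libraries once depth was equal. An Nxph4 or Cplx3 UMI was found in 12.1% of wild-type and 9.67% of knockout-labelled excitatory cells as sequenced, a ratio of 0.802 (0.720 to 0.894), and in 4.999% and 4.534% after thinning, a ratio of 0.907 (0.758 to 1.09). Within cluster 5, members were 7.37% and 4.47% of the cells, a ratio of 0.607 (0.361 to 1.01). After thinning, 17.2% and 17.5% of cluster 5 cells carried an Nxph4 UMI, a ratio of 1.02 (0.759 to 1.36). Cluster 5 as a whole was 5.98% of wild-type and 4.87% of knockout-labelled called cells. As a background for free RNA, microglia-type cells, with medians of 15943 and 15495 UMIs, carried an Nxph4 UMI in 0 of 77 (exact upper bound 4.68%) and 7 of 176 cells (3.98%), and after thinning in 0 of 65 and 2 of 152 cells (1.32%). Of the 176 knockout-labelled cells, 2 held at least 3 UMIs of Nxph4 and Cplx3. Whether the 7 cells show free RNA alone was not tested. At least 2 UMIs of Neurod2 and Neurod6 were found in 15.6% and 21.6% of microglia-type cells, so that this limit alone does not set excitatory cells apart; members had a median of 22 and 20 such UMIs.

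By a rule that required the same direction in both libraries, members differed from other excitatory cells in many genes. A gene was called where it was at least 2-fold higher or lower with an interval that left out 1 in each library, which is a condition on size with no test behind it. Of 6952 measured genes, 171 were higher (2.46%) and 248 lower (3.57%) in members, while the median log2 ratio over all measured genes was 0.01 and 0.02. The count depended on the clusters compared: where the other excitatory cells were weighted to the same spread over clusters, 23 genes (0.34%) were higher and 10 (0.148%) lower. The weighted ratio had no interval of its own and was held to that of the unweighted sums. All of these genes were also among the first calls, which that shared interval largely set in advance. Against layer 6-type cells, 136 of 7015 genes (1.94%) were higher and 273 (3.89%) lower in members. The reference of other excitatory cells holds no Nxph4 UMI and is shallower than the members, whose cells were picked by a UMI minimum.

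Tac2 had the largest called ratio after Gng8. It lies on chromosome 10 at 127724478 to 127731768 (plus strand), 189.9 kb from Nxph4, and encodes the precursor of neurokinin B. Tac2 stood at 182 CPM in wild-type members (210 UMIs in 21 of 70 cells) against 3.08 CPM in other excitatory cells, and at 152 CPM in knockout-labelled members (118 UMIs in 9 of 51 cells) against 1.57 CPM, ratios of 59.1 and 96.6. The richest single cell held 26.7% and 35.6% of these UMIs. Most members thus carried no Tac2 UMI in either library.

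Other genes that stood high in members were mostly found in more cells. Mfap4, a microfibril-associated glycoprotein gene, stood at 373 and 287 CPM against 35.5 and 34.3 CPM and was found in 58 of 70 and 37 of 51 members. The long noncoding RNA gene Rmst stood at 138 and 102 CPM against 9.09 and 9.43 CPM. Tcf7l2, a Wnt effector, stood at 68.6 and 69.6 CPM against 7.99 and 7.64 CPM. The helix-loop-helix genes Nhlh1 and Nhlh2 stood at log2 ratios of 3.16 and 3.15 in the wild-type and 3.00 and 2.72 in the knockout-labelled library. Loxl1, Dusp14 and Tgfb2, which encode a matrix oxidase, a phosphatase and a growth factor, had log2 ratios between 2.78 and 3.32 in both libraries. For all of these, member levels were above those of other excitatory cells in both libraries, as the rule for a call required.

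Several of the highest ratios rested on few cells. Gng8 gave 42 UMIs in 2 wild-type members and 53 UMIs in 3 knockout-labelled members, and all 66 wild-type UMIs of Snhg11 came from a single member. Dlk1 was found in 2 and 3 members. Zic5 and Zic2 were found in 7 and 8 wild-type and 6 and 7 knockout-labelled members, and 1 cell held 60.3% of the wild-type Zic5 UMIs. Rbms3 was found in 9 and 8 members.

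Genes of more mature or other cells were lower in members. Npy and Cck, 2 neuropeptide genes, gave 0 and 1 UMI and 3 and 0 UMIs in members, against 79.3 and 116 CPM and 49.9 and 45.0 CPM in other excitatory cells. Nts, another neuropeptide gene, stood at 0.868 and 2.58 CPM against 48.8 and 26.3 CPM. Ttr, a choroid plexus transcript, stood at 26.04 and 37.38 CPM against 785 and 434 CPM. Inhba, Fn1, Lrfn5, Gucy1a1, Grm5 and Nefl made up the rest of the 10 named lower genes. Grm5, a metabotropic glutamate receptor gene, and Nefl, a neurofilament gene of projection neurons, had log2 ratios of -2.90 and -2.83 in the wild-type and -2.55 and -2.52 in the knockout-labelled library.

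By gene list, 6 of 14 measured migrating and immature neuron markers were higher (Eomes, Neurod1, Unc5d, Rnd2, Mdk and Igfbpl1) and 1 lower (Tiam2). Their median log2 ratios were 0.95 and 1.02, beside 0.01 and 0.02 for all genes. Other lists had medians of like size. Hippocampal markers had 1.05 and 0.92, with 2 of 4 measured genes higher and 0 lower. Cajal-Retzius markers had 1.37 and 0.67, with 1 of 4 higher and 1 lower. Over all measured genes, 2.46% were called higher and 3.57% lower by the same condition. Of 12 upper-layer genes, 4 were lower, with Mef2c at 202 and 220.4 CPM against 1121 and 1056 CPM, and Lhx2 was higher. Of 17 genes of transmitter release, 6 were lower, among them the complexin gene Cplx1 and the calcium sensor genes Syt1 and Syt4, while the synapsin gene Syn2 was higher. Voltage-gated channel genes were lower in 4 of 16 cases, among them Scn2a, Scn3b and Cacna1e, and higher in none. Of 35 axon guidance and adhesion genes, 3 were higher (Unc5d, Epha4 and Tenm4) and 7 lower, among them Robo1 and Nrcam.

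The lists that bear on Cyfip2 and on cell state differed in their counts, beside 2.46% of all measured genes called higher and 3.57% lower. None of the 7 measured WAVE complex genes other than Cyfip2 was called in members. Of 41 measured genes in the list of actin regulators, the only call was Stmn2, which was lower and encodes a microtubule regulator. Of 13 immediate early genes, 5 were higher (Fos, Junb, Egr1, Btg2 and Atf3) and 2 lower, at medians of 0.93 and 1.05. A single cell held 29.2% and 41.5% of Fos UMIs and 92.9% of the wild-type Atf3 UMIs. Of 17 cholesterol genes, 3 were lower, among them Fdps and Lss. No gene of the heat shock, unfolded protein response or mitochondrially encoded lists was called. Of layer 6 corticothalamic genes, Nfia was higher, and Tle4 stood at 130.2 and 142 CPM in members against 81.8 and 88.4 CPM, short of the 2-fold rule. When members of cluster 5 were set against other cells of that cluster, none of 10 measured immediate early genes was called, at medians of -0.015 and -0.035. None of 14 cholesterol genes was called there either, at medians of -0.29 and -0.70.

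**Figure D3:**
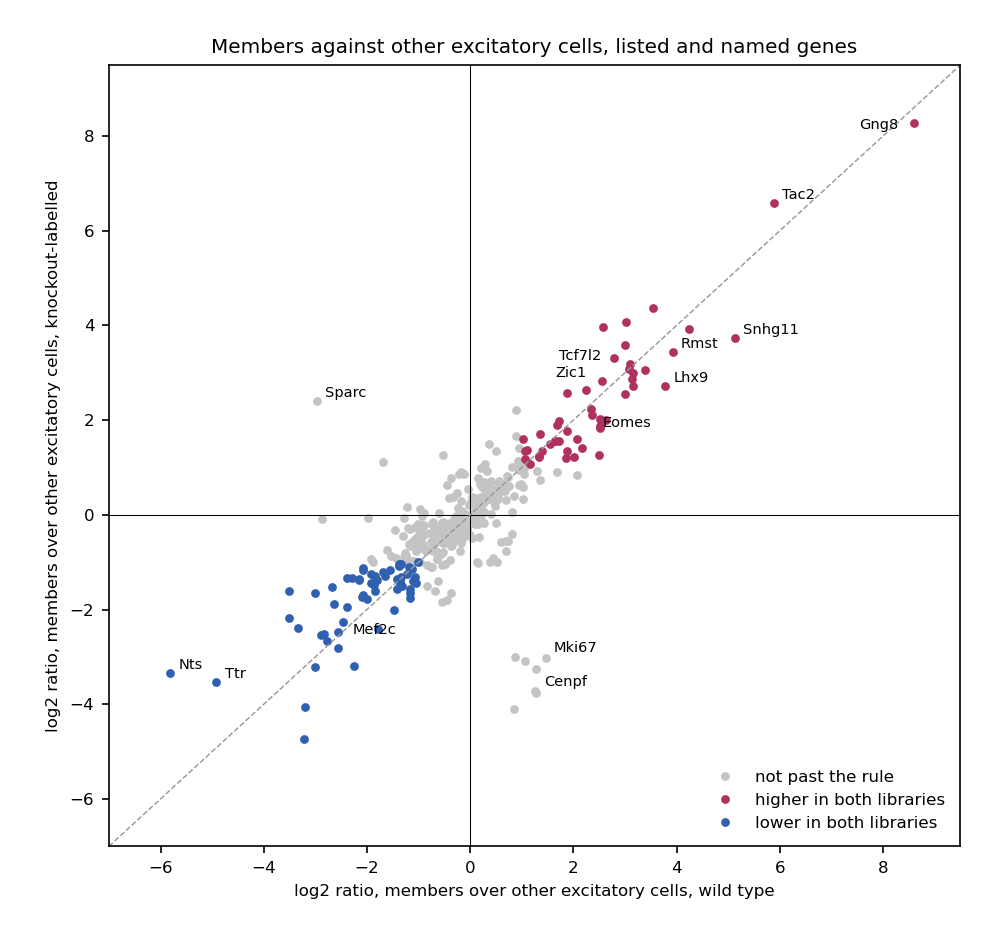
log2 ratio of members over other excitatory cells in the wild-type library (horizontal) and the knockout-labelled library (vertical) for measured genes of the lists and the named genes that are reported here, without the rule genes; red points were called higher and blue points lower in both libraries, and the dashed line marks equal ratios. Gng8 lies farthest out at 8.59 and 8.27, followed by Tac2 at 5.89 and 6.59, and Mki67, Cenpf and Sparc lie away from the line, with opposite signs in the 2 libraries.

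Within cluster 5, where most members lay, far fewer genes set members apart from cells without a rule-gene UMI. This comparison was added after the clusters had been seen. Of 6586 measured genes, 36 were higher (0.547%) and 28 lower (0.425%) in the 68 members, and 18 of the 36 had also been called higher against all other excitatory cells. Rnd2, Unc5d and Eomes were not among them: Eomes stood at 508 CPM in wild-type members and 396 CPM in the other cells of the cluster, and at 370.5 CPM against 466 CPM in the knockout-labelled library. None of the 14 migrating and immature neuron genes was called within the cluster, with list medians of 0.07 and 0.05. Nor was any of 10 measured voltage-gated channel genes. Of 11 genes of transmitter release 1 was lower, and 2 of 11 upper-layer genes and 2 of 31 guidance and adhesion genes were lower. No gene of these lists was called higher there.

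The genes that did differ within cluster 5 included several of the earlier ones. The genes given here were chosen after their values had been seen, among the 36 and 28. Tac2 stood at 208 CPM in wild-type members against 30.4 CPM in the rest of the cluster, and at 285 CPM against 9.85 CPM in the knockout-labelled library. Rmst had log2 ratios of 3.28 and 2.56, and the LIM homeobox gene Lhx9 stood at 42.2 and 20.0 CPM against 3.28 and 1.56 CPM. Tgfb2, Nhlh1, Nhlh2, Tcf7l2, Mfap4 and Loxl1 were higher as well, with log2 ratios from 1.04 to 3.19. Calb2, the chemokine receptor gene Cxcr4, the GABA receptor subunit gene Gabra2 and the morphogen gene Wnt5a were also called higher. Of the 25 subplate markers, Hpcal1 and Zfpm2 were called higher within the cluster, with log2 ratios of 2.12 and 2.42 in the wild-type and 1.69 and 1.74 in the knockout-labelled library, at medians of 0.15 and 0.01 over the 7 measured. All of the genes given here were above the rest of the cluster in both libraries, which the rule for a call required.

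Lower genes within cluster 5 included cytoskeletal and upper-layer genes. Stmn2, a microtubule regulator of growing neurites, stood at 108 and 250.3 CPM in members against 369 and 516 CPM in the rest of the cluster. Cux2, a transcription factor of upper-layer neurons, had log2 ratios of -1.12 in the wild-type and -1.74 in the knockout-labelled library, and Pou3f1 was also lower. The transcription factor gene Tfap2d was lower too, on 5 and 2 UMIs over all members. Stmn4, the chemokine gene Cxcl12, the guidance gene Sema5a, the kinase gene Pak3 and the cadherin gene Cdh8 were also among the 28.

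**Figure D4:**
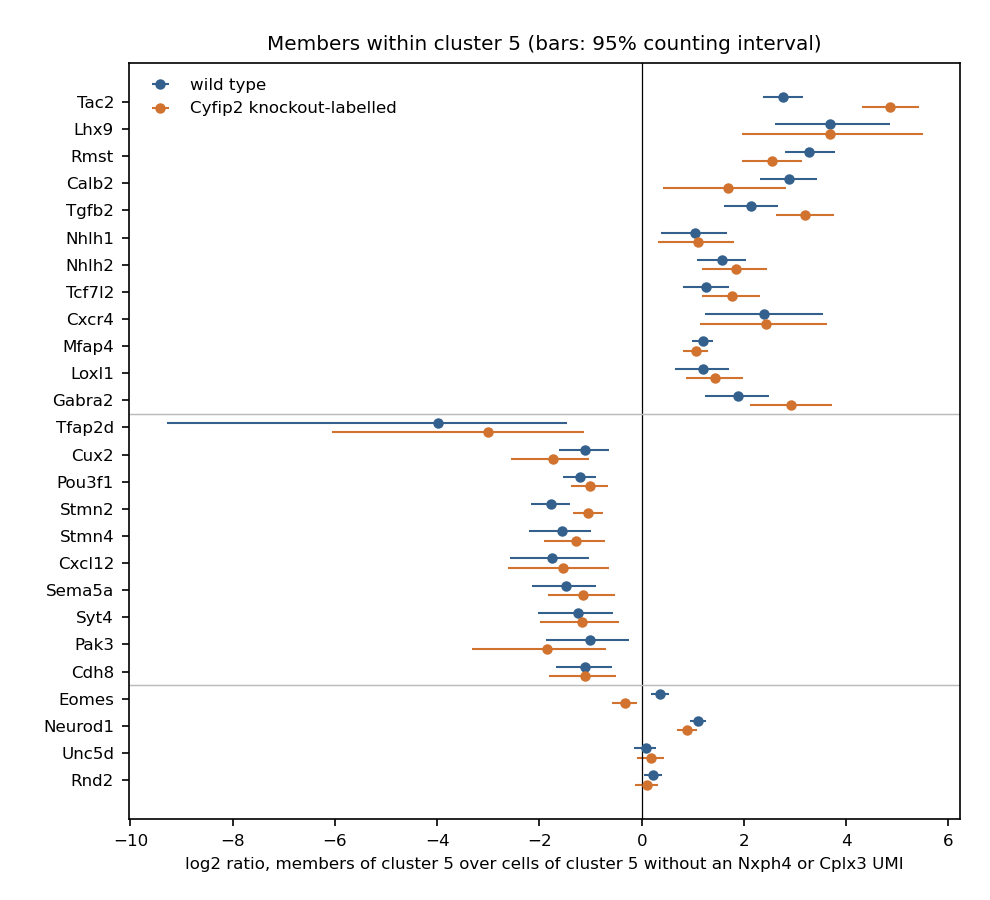
log2 ratio of cluster 5 members over cluster 5 cells without an Nxph4 or Cplx3 UMI (horizontal), in the wild-type (blue) and knockout-labelled (orange) libraries, with bars for the 95% counting interval. The upper block shows genes called higher, the middle block genes called lower, and the lower block 4 immature-neuron genes that were not called, whose ratios lie between -0.33 and 1.10.

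Between the libraries, members differed in 383 of 5853 measured genes (6.54%) by 1.5-fold with an interval that left out 1. The knockout-labelled members had 194 of these genes (3.31%) higher and 189 (3.23%) lower, and the median log2 ratio over all measured genes was 0.01. A member pool of 70 or 51 cells is small enough for a single cell to set a gene's sum, and this was the case for the largest ratios. Among the 12 largest ratios in the higher direction, 1 cell held more than 50% of the UMIs in 10, and among the 12 largest in the lower direction in 7. Members came from several clusters in unlike proportions, and the part of this in the ratios was not tested.

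The genes with the largest higher ratios included Ccl3, Sparc, C1qc, Ier3, Klf2, Apoe, Zfp36l1, Sparcl1, S100a11 and Lgals1, several of which are known from microglia, blood vessels, fibroblasts or astrocytes. Ccl3, a microglial chemokine gene, gave 53 UMIs that all came from 1 knockout-labelled member, and 1 UMI in wild-type members. C1qc, a complement gene of microglia, gave 51 UMIs in 4 knockout-labelled and none in wild-type members, at least 25.2-fold higher against a floor of 3 counts in the wild-type library, and 1 cell held 90.2% of these. Sparc stood at 95.4 CPM against 3.47 CPM, and 1 cell held 82.4%. The summed level of a list of 15 microglial, vascular, fibroblast and other non-neural markers was 46.9 CPM in wild-type and 344 CPM in knockout-labelled members, with single-cell maxima of 269.6 and 6964 CPM and medians of 43.6 and 67.5 CPM. In other excitatory cells the same list summed to 1040.4 and 1020.2 CPM. Of its genes, 10 were at 0 in wild-type and 1 in knockout-labelled members, and 2 knockout-labelled members lay in cluster 24, led by the microglial genes Pf4 and C1qa. The part of these cells in the other ratios was not tested.

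The 12 genes with the largest lower ratios were Tph1, Cdkn1a, Top2a, Pbk, Birc5, Pclaf, Mki67, Cenpf, Col8a1, Esm1, Prc1 and Hist1h1b. Of these, 8 belong to the cell-division machinery, and the 3 members of the dividing cluster 20 were all wild type. Top2a gave 180 UMIs in 10 wild-type and 3 UMIs in 3 knockout-labelled members, and Mki67 130 and 3 UMIs; cluster 20 held 142 and 104 of the UMIs of these genes over all members. Tph1 gave 102 UMIs in 4 wild-type members, 94 of them in the 2 wild-type members of cluster 26. Col8a1 and Esm1 gave 103 and 97 UMIs in wild-type members and none in the others, and 1 cell held 63.1% and 84.5%.

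Of the 383 calls, 268 were spread, meaning that no cell held over 20% of the UMIs in the higher library and at least 10 cells carried the gene there. This condition was set after the values had been seen, and the genes given here were picked by it. The largest spread ratios in the higher direction were those of Rgs2, Adgrl3, Myo6, Alcam and Zic4. Adgrl3, a latrophilin that binds teneurins and FLRT proteins, stood at 22.6 CPM in 15 wild-type members and 59.3 CPM in 21 knockout-labelled members, a log2 ratio of 1.39 (0.67 to 2.15). Alcam, an adhesion molecule of growing axons, stood at 25.2 and 64.4 CPM, a log2 ratio of 1.36 (0.67 to 2.07). Myo6, an unconventional myosin gene, stood at 20.8 and 54.1 CPM. In the lower direction, Sde2 stood at 69.4 CPM in 40 wild-type members and 24.5 CPM in 15 knockout-labelled members, a log2 ratio of -1.50 (-2.31 to -0.77). Nif3l1, Dcaf17, Prmt8 and Usp32 followed with log2 ratios between -1.43 and -1.40.

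Few of these calls were also made within cluster 5. Of 3503 genes measured in its 40 and 28 members, 80 (2.28%) were higher and 74 (2.11%) lower, together 4.4%, and 24 and 20 of these were shared with the calls over all members. Sde2 had a log2 ratio of -1.75 there, Adgrl3 of 1.57, Alcam of 2.41 and Myo6 of 1.79. All 4 lay in the same direction as over all members, but none was called there. A call also needed a minimum count, and fewer genes were measured in cluster 5 than the 5853 over all members. Whether these 4 genes were measured there, and how many of the calls over all members were, is not given here. The missing calls therefore do not show that the differences were absent in cluster 5. The size of these 4 ratios depended on the UMI minimum of the rule: with at least 2 UMIs of Nxph4 and Cplx3, which gave 199 and 173 members, they were -0.17 for Sde2, 0.52 for Adgrl3, 0.20 for Alcam and -0.031 for Myo6. With the rule applied to thinned cells the ratio of Myo6 was -0.60. Within cluster 5, Rgs2 and Zic4 had log2 ratios of -0.17 and -0.43, against 1.46 and 1.31 over all members. Mki67 and Top2a had log2 ratios of -0.75 and -1.02 within the cluster, against -4.87 and -5.34 over all members. The cluster 5 members held only 7 Mki67 and 4 Top2a UMIs over both libraries. These counts are too few to tell whether the difference between the libraries was smaller there.

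By gene list, the share of genes that differed between the libraries varied, beside 3.31% of all measured genes higher and 3.23% lower. In the axon guidance and adhesion list, 6 of 32 measured genes were higher in the knockout-labelled library (Robo1, Efnb3, Sema5a, Nrp1, Nrp2 and Pcdh9) and Pcdh10 was lower, at a list median of 0.11 beside 0.01 for all genes. Robo1, the receptor of Slit proteins, stood at 52.1 and 81.2 CPM, and Pcdh9, a protocadherin gene, at 26.9 and 52.8 CPM. In the list of neuropeptide and secreted factor precursors 3 of 7 genes, Scg2, Igfbp4 and Fgf13, were higher and none lower, at a list median of 0.49. A single knockout-labelled member held 59.6% of the Scg2 UMIs and another 47.4% of those of Igfbp4. Of 11 immediate early genes, Egr1, Ier2 and Btg2 were lower, at a list median of -0.05, and of 14 migrating and immature neuron genes Tiam2 and Nrp1 were higher.

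Among WAVE complex genes other than Cyfip2, 1 of 6 was called. Cyfip1, the paralogue of Cyfip2, stood at 38.2 CPM in wild-type members (44 UMIs in 27 cells) and 63.2 CPM in knockout-labelled members (49 UMIs in 25 cells), a log2 ratio of 0.73 (0.11 to 1.35). Within cluster 5 its log2 ratio was 0.50. Cyfip2 had a log2 ratio of 0.52 (-0.02 to 1.06), with an interval that held 0. Nckap1, Wasf1, Abi1, Abi2 and Brk1 had log2 ratios from -0.34 to 0.28 and were not called. Of 38 measured genes in the list of actin regulators, which also holds the microtubule gene Stmn2, 3 were higher, Rac3, Pak3 and Ssh2, and none lower, at a list median of 0.02. A single cell held 41.2% of the Pak3 UMIs of the knockout-labelled library.

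**Figure D5:**
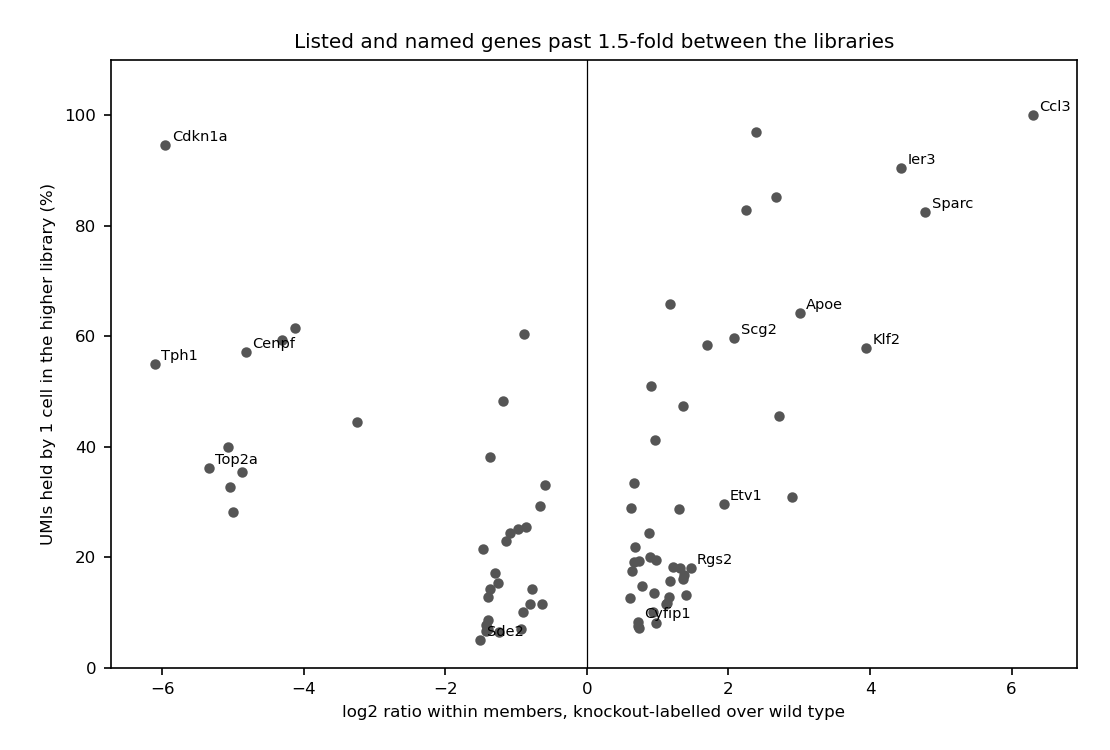
log2 ratio within members, knockout-labelled over wild type (horizontal), against the share of the UMIs of the gene held by its richest cell in the library where it is higher (vertical, %), for listed and named genes past 1.5-fold that are reported here and were detected in both libraries. Genes with log2 ratios beyond 2 in either direction lie above 28%, whereas genes such as Sde2 and Cyfip1 lie below 10%.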

How the data were processed

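Single-cell counts were made by the authors with Cell Ranger 4 per the file headers, against mm10 per the submitters' processing notes; the deposited values are raw UMI counts per gene and barcode. Barcodes with at least 1000 UMIs, 500 genes and at most 10% mitochondrial UMIs were kept. The members and gene lists were chosen with earlier results of these data known. Counts were summed per library and cell group and divided by the total (CPM). Ratios carry exact 95% intervals of 2 Poisson counts, which take no account of differences between cells or animals. Genes needed 20 CPM in either group, and between libraries also 50 counts together; a count of 0 was set against a floor of 3 counts. Clusters came from scanpy 1.11.5 and leidenalg 0.10.2 (2000 variable genes, 30 components, 15 neighbours, resolution 1), without the rule genes. Possible doublets were marked with Scrublet at 0.8% per 1000 cells and kept. Shares were also taken after thinning to 4000 UMIs. Microglia-type cells had at least 10 UMIs of microglial markers. Named genes were those of 30 lists, the 15 highest and 10 lowest called ratios to other excitatory cells, ranked by the smaller ratio of the 2 libraries, and the 12 largest in each direction between libraries. Sex-linked, haemoglobin, mitochondrial and unnamed genes were counted but not named by rank, and some other genes are not reported here. Python 3.11.15, numpy 2.4.6, scipy 1.17.1 and matplotlib 3.10.9 were used, and the procedure was tested on simulated data.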

Additional observations from a re-analysis of the deposited data

Results flagged for a closer look

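In the wild-type library 35 cells and in the knockout-labelled library 30 cells had 3 or more UMIs of Nxph4 and Cplx3 but were left out by the limits on the other genes. Of these, 29 and 21 had under 2 UMIs of Neurod2 and Neurod6, 5 and 9 had over 1 UMI of the Dlx genes, and 15 and 13 had over 10 Reln UMIs. Cluster 26 held 15 of the wild-type cells, and cluster 27, led by Ndnf, Nhlh2 and Trp73, held 12 and 13.

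Cluster 26 held 179 Cplx3 UMIs, all of them in the wild-type library.

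In 9 genes given here, members stood above other excitatory cells in 1 library and below them in the other, and the difference between the libraries was not tested. The log2 ratios in the wild-type and the knockout-labelled library were 1.28 and -3.26 for Cenpf, 1.46 and -3.03 for Mki67, 1.28 and -3.77 for Pclaf, 1.25 and -3.71 for Top2a, 1.06 and -3.08 for Hist1h1b and 1.07 and -1.67 for Lockd. They were -1.69 and 1.11 for Apoe, -2.97 and 2.40 for Sparc and -1.03 and 1.09 for Ppp2r2c. A single cell held 57.1% of the wild-type Cenpf UMIs, and 64.1% of the Apoe and 82.4% of the Sparc UMIs of the knockout-labelled members.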

How the results depend on the processing

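The ratio of the member shares, 0.515, ran from 0.374 to 0.614 over its alternatives. No paired analysis was possible because the labels carry no replicate numbers and each genotype has 1 library. An alternative restricted to clusters with at least 10% members was not run, since the highest share was 5.82%. Alternatives with 5 Neurod UMIs, cluster 5 only, without the members of cluster 26, or with clusters weighted as the members were chosen after seeing the data. Unless stated otherwise, the cause of a change was not tested.

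The counts between the libraries, 194 higher and 189 lower, became 36 and 23 with the rule on thinned cells (8 and 6 members), 80 and 74 in cluster 5, 548 and 407 without the filter and 53 and 73 at 2-fold. The lower count was 118 with a minimum of 2 UMIs and 108 with 5, and the higher count was 101 in members with 2 other subplate markers. Against other excitatory cells, 171 and 248 became 36 and 28 in cluster 5, 23 and 10 with weighted clusters, 105 and 144 at 50 CPM and 403 and 503 at 1.5-fold. The lower count was 141 with a minimum of 2 UMIs and 150 on thinned cells, and the higher count was 315 at 5 CPM.

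Signs between the libraries turned for some genes. These values are given without intervals, and several lie near 0 or rest on few members. Members numbered 8 and 6 on thinned cells and 17 and 9 with a minimum of 5 UMIs, so that the turned signs are uncertain. With a minimum of 2 UMIs the log2 ratios were 0.22 for Birc5, 0.23 for Cenpf and -0.031 for Myo6, and with 5 UMIs -1.28 for S100a11 and Lgals1. On thinned cells they were -0.016 for Ier3, Mbnl2 and Rps6kb2, -0.60 for Apoe, Myo6 and Zic4, 0.27 for Dut and 0.57 for Szrd1. In cluster 5 they were -1.02 for Zfp36l1 and S100a11, 1.57 for Prc1 and Hist1h1b, -0.17 for Rgs2 and -0.43 for Zic4. Without the members of cluster 26 the value was -2.52 for Lgals1. Against other cells of cluster 5, Ttr and Fn1 had 0.21 and 0.28 in the wild-type and Grm5 0.27 in the knockout-labelled library, and with weighted clusters Snhg11 had -0.56 in the latter.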
